A study of Mus musculus with 12 samples.

Results

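The regions described here are H3K27me3 peaks that the list of KMT2D wild-type (WT) mouse melanoma cells held and that no peak of the KMT2D mutant list overlapped by 1 bp or more. Of the 13204 WT H3K27me3 peaks on the 19 autosomes, 4630 (35.1%) met this rule, and the other 8574 had a mutant peak and are called shared. The members were chosen by their H3K27me3 peak calls in the WT and mutant libraries, so their number, length, strength and distance to mutant H3K27me3 are given as descriptions without a test. The peaks of the active marks H3K4me3, H3K27ac, H3K4me1 and H3K79me2 come from other libraries, which the rule did not use.

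Histone marks were mapped by chromatin immunoprecipitation and sequencing (ChIP-seq), which recovers DNA bound to histones that carry a given modification. The cells came from tumours on the ears of iBIP mice, a melanoma model on a mixed FVB and B6 background. Both genotypes carried Tyr-CreERT2, a tamoxifen-dependent Cre driven by the tyrosinase promoter and so directed at melanocytes. They also had Rosa26-rtta with TetO-BRAFV600E, an oncogenic BRAF that doxycycline turns on, and the conditional alleles PTENL/L and INK/ARFL/L. WT cells were from KMT2D+/+ mice and mutant cells from KMT2DL/L mice, and all mice received doxycycline and 1 uM of 4-OHT (4-hydroxytamoxifen). Ages and the number of tumours per genotype are not given in the sources used here. Each genotype had 1 library per mark, so a difference between genotypes cannot be told apart from a difference between 2 libraries. The deposited lists carry no gene names and are on build mm9, so melanocyte marker genes were not checked and regions are given by position.

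H3K27me3 is placed by the Polycomb repressive complex PRC2 and covers genes that are kept silent, among them many regulators of development. Broad H3K27me3 domains often surround CpG-rich promoters, and a promoter with both H3K27me3 and H3K4me3 is called bivalent. H3K4me3 marks promoters, H3K27ac active promoters and enhancers, H3K4me1 enhancers, and H3K79me2 the first part of transcribed genes. KMT2D is a methyltransferase that works at enhancers in a complex with the H3K27 demethylase KDM6A.

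WT-only H3K27me3 peaks were short. Their median length was 570.5 bp, with a middle range (25th to 75th percentile) of 349 to 858 bp and a maximum of 4883 bp. Shared peaks had a median of 1608 bp and reached 142199 bp. Although they were 35.1% of the autosomal WT peaks, the WT-only peaks held 3.16 of 27.6 Mb, or 11.5% of the covered length. Of peaks of 200 to 299 bp, 64.9% were WT-only (829 peaks), against 5.56% (264 peaks) of those of 1500 bp or more.

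The fold enrichment that the authors' peak caller gave each peak differed less than length did. WT-only peaks had a median fold of 3.80 (range 2.84 to 5.70) and shared peaks one of 3.97 (2.53 to 6.58). The median −log10 q, where a higher value is a stronger peak, was 3.50 in WT-only and 4.22 in shared peaks. Ordered by −log10 q, the weakest decile of the WT list was WT-only in 60.6% of cases (800 peaks) and the strongest decile in 2.12% (28 peaks). From the second decile on, each stronger decile had a lower share, as the plot of length and strength shows. The members were thus mostly short and low in −log10 q. Among WT peaks with a −log10 q of at least 5, 7.13% had no mutant peak of any strength.

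**Figure D1:**
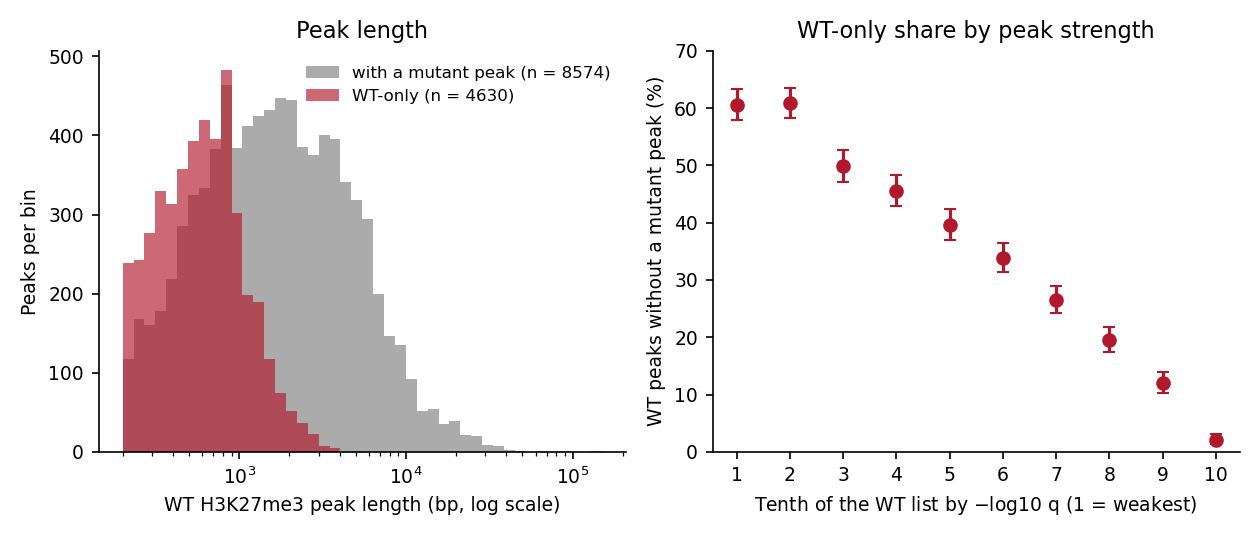
Left, number of autosomal WT H3K27me3 peaks by length in bp (log axis), WT-only peaks in red and peaks with a mutant peak in grey; right, percent of WT peaks that were WT-only in each decile of the WT list by −log10 q, with exact 95% binomial intervals. WT-only peaks crowd below 1500 bp, and their share goes from 60.6% in the weakest decile to 2.12% in the strongest one.

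Most WT-only peaks lay near H3K27me3 of the mutant. The median distance between peak edges was 3476 bp, 1287 members (27.8%) had a mutant H3K27me3 peak within 1000 bp, and 3014 (65.1%) had one within 10 kb. That share was 24.8% when a −log10 q of at least 5 was required in both H3K27me3 lists. At the other end, 578 members (12.5%) were more than 100 kb from any mutant H3K27me3 peak and 78 more than 1000000 bp. Mutant H3K27me3 lay within 10 kb on both sides of 1203 members (26.0%), on 1 side of 1811 (39.1%), and on neither side of 1616 (34.9%). The longest mutant peak within 10 kb had a median length of 1940 bp, and was at least 5000 bp long for 703 of the 3014 members.

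In the neighbourhood of the members the mutant list covered no less sequence than the WT list. Windows reaching 10 kb to each side of the members, joined where they met, spanned 79.3 Mb. WT H3K27me3 covered 8.28 Mb of this (10.4%), of which the members themselves were 3.16 Mb, and mutant H3K27me3 covered 8.78 Mb (11.1%). The mutant over WT ratio of covered length was 1.06 here, 1.28 in windows of 50000 bp to each side, and 1.36 over all autosomes. WT cover in these windows is raised by the rule, which placed a WT peak and no mutant peak at the centre of each.

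The edge of the rule ran between near neighbours. On chromosome 11, the member from 121248547 to 121248987 touched a mutant peak with 0 bp between them; WT H3K4me3 covered 396 bp of it and mutant H3K4me3 all 441 bp. Next by distance were the chromosome 2 member at 158414664 to 158415990, 1 bp from a mutant peak (fold 3.82), and a chromosome 11 member at 5053694 to 5054115, 2 bp from one (fold 3.29). Just outside the rule were WT peaks of chromosome 5, from 33539066 to 33540398 and from 141071898 to 141072961, each overlapping mutant H3K27me3 by 1 bp, with folds of 4.07 and 3.26. The peak on chromosome 1 from 137406908 to 137407280 overlapped it by 2 bp and had a fold of 4.69.

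Active marks of the mutant were found at few WT-only H3K27me3 peaks. Any of the 4 marks overlapped 429 of the 4630 members, or 9.27% (95% interval 8.45 to 10.1), against 17.8% of all autosomal WT H3K27me3 peaks. Mutant H3K4me3 was at 361 members (7.80%, 16.8% over all WT peaks), H3K27ac at 194 (4.19%, 4.73% over all), H3K79me2 at 72 (1.56%, 2.17% over all) and H3K4me1 at 12 (0.259%, 0.326% over all). Shared peaks had a mutant active mark more often, in 22.5% of cases (21.6 to 23.4). The difference was -13.2 percentage points (Newcombe 95% interval -14.4 to -12.0), and H3K4me3 gave most of it, at -13.9 points (-15.1 to -12.8). For H3K27ac the difference was -0.83 points (-1.55 to -0.067), and for H3K4me1 it was -0.10 points with an interval that spans 0 (-0.29 to 0.12). Leaving out H3K4me1, whose mutant list was short, 423 members (9.14%, 17.7% over all) had a mutant mark. H3K4me3 or H3K27ac was at 406 (8.77%, 17.4% over all). When a mark had to cover at least 50% of the peak, any mutant mark was at 8.38% of WT-only and 11.6% of shared peaks. With a −log10 q of at least 5 in both H3K27me3 lists, the share with any mutant mark was 26.1% at WT-only and 37.0% at shared peaks, and with it in the WT list alone 17.2% and 35.9%. Mutant H3K27ac was then at 7.65% and 7.29% of WT-only peaks, and its share at shared peaks was not computed for these settings. By decile of −log10 q its order varied. It was at 5.43% of WT-only and 6.68% of shared peaks in decile 8, and at 8.18% and 5.08% in decile 9. The intervals given for shares and differences take in counting error alone, and adjacent peaks are not independent of one another.

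In the WT lists 478 members (10.3%, 9.46 to 11.2) had an active mark, against 20.4% over all WT peaks. The WT counts were 375 for H3K4me3 (8.10%, 18.4% over all), 232 for H3K27ac (5.01%, 5.88% over all), 140 for H3K79me2 (3.02%, 4.01% over all) and 65 for H3K4me1 (1.40%, 3.06% over all). Any mark but H3K4me1 was at 447 (9.65%, 19.5% over all), and H3K4me3 or H3K27ac at 417 (9.01%, 19% over all). Both genotypes had no active mark at 4113 members (88.8%, 87.9 to 89.7; 78.1% over all). These make up most of the 4351 members (94.0%, 93.2 to 94.6; 89% over all) that had an identical set of marks, or none, in both. Of the 517 members with a mark in either genotype, 238 (46.0%, 41.7 to 50.4) had the identical set in both and 279 a different one. Among the 2375 shared peaks with a mark, 50.5% (48.5 to 52.5) had the identical set, and the interval of the difference, -9.15 to 0.31 points, spans 0. An active mark was in the mutant and none in WT at 39 members (0.84%, 1.47% over all). The opposite, an active mark in WT and none in the mutant, held at 88 (1.90%, 4.06% over all). Without H3K4me1 these counts were 41 (0.89%, 1.54% over all) and 65 (1.40%, 3.3% over all).

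**Figure D2:**
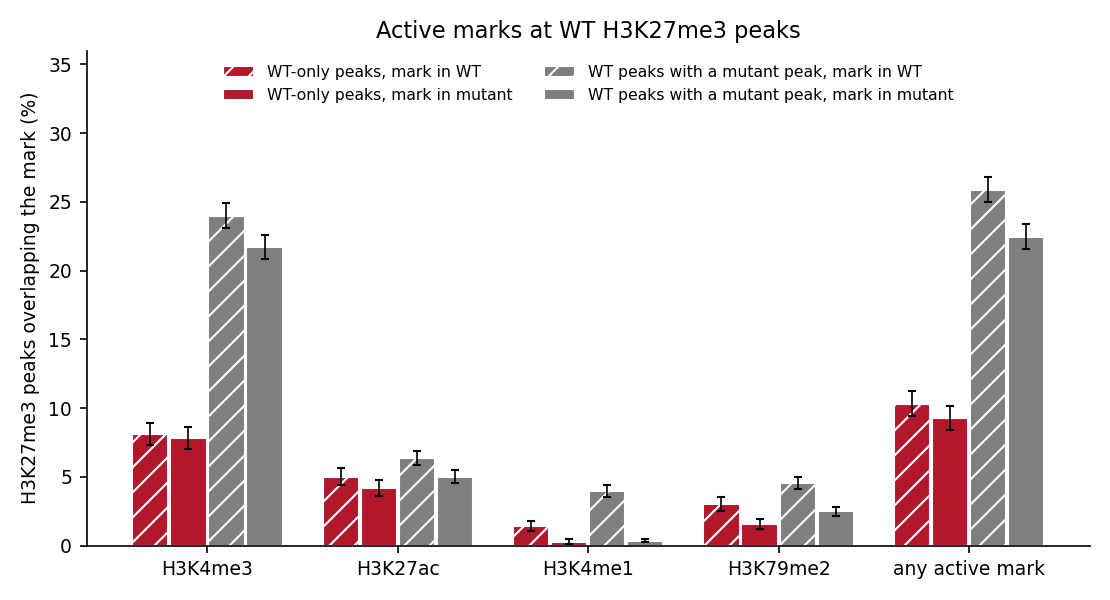
Percent of autosomal WT H3K27me3 peaks that overlapped each active mark, for WT-only peaks (red, n = 4630) and peaks with a mutant peak (grey, n = 8574), with the mark in WT hatched and in the mutant plain; bars carry exact 95% binomial intervals. The red bars for any active mark stand at 10.3% and 9.27%, below the grey ones at 25.9% and 22.5%.

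The gap in H3K4me3 between WT-only and shared peaks was widest in long peaks. Among peaks of 200 to 299 bp, mutant H3K4me3 was at 6.15% of WT-only (4.61 to 8.01) and 5.79% of shared peaks (3.82 to 8.37). Among those of 300 to 499 bp the shares were 6.98% and 7.48%. The shares were 6.70% (5.40 to 8.21) and 9.23% (7.60 to 11.1) at 500 to 799 bp. They were 8.82% (7.22 to 10.6) and 13.8% (12.2 to 15.5) at 800 to 1499 bp and 17.4% (13.0 to 22.5) against 32.0% (30.6 to 33.4) at 1500 bp or more. That last class has no upper limit, so lengths are not matched within it. WT-only peaks reached 4883 bp and shared peaks 142199 bp. Mutant H3K27ac had no such order. It was at 3.98% of WT-only (2.76 to 5.55) and 1.78% of shared peaks (0.77 to 3.48) in the shortest class. At 300 to 499 bp its shares were 4.24% of WT-only and 3.28% of shared peaks. The order was reversed at 500 to 799 bp (3.35% and 4.17%) and at 800 to 1499 bp (4.27% and 5.65%). In the longest class mutant H3K27ac was at 8.33% (5.30 to 12.3) and 5.60% (4.94 to 6.31). No interval of the difference was computed by length class, so overlap of these intervals does not show equal shares.

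Each mark that a member carried in WT was compared with its state in the mutant. H3K4me3 was kept at 331 of 375 members (88.3%, 84.6 to 91.3), H3K27ac at 156 of 232 (67.2%, 60.8 to 73.2), H3K79me2 at 67 of 140 (47.9%, 39.3 to 56.5) and H3K4me1 at 5 of 65 (7.69%, 2.54 to 17.0). Shared peaks kept H3K4me3 in 83.0% of cases, H3K27ac in 63.5%, H3K79me2 in 48.5% and H3K4me1 in 5.60%. The members' H3K4me3 share was higher by 5.24 points (1.27 to 8.57). For the other 3 marks the interval of the difference spanned 0, at -3.65 to 10.8 points for H3K27ac, -10.1 to 8.98 for H3K79me2 and -3.20 to 11.4 for H3K4me1. Over the whole autosomal WT list of each mark, counted by mark peak and not by H3K27me3 region, 88.6% of H3K4me3, 76.0% of H3K27ac, 63.3% of H3K79me2 and 23.0% of H3K4me1 peaks overlapped a mutant peak of the mark. The members' H3K4me3 share was close to that of the list, and their shares for the other 3 marks were lower. These shares differ in unit. In the list a mutant peak anywhere along the mark peak counts, and in the members only one that overlaps the H3K27me3 peak. WT marks were without a mutant counterpart at 44 members for H3K4me3 (0.95%, 2.98% over all WT H3K27me3 peaks), 76 for H3K27ac (1.64%, 2.08% over all), 60 for H3K4me1 (1.30%, 2.88% over all) and 73 for H3K79me2 (1.58%, 2.08% over all). H3K4me1 was also the mark with the fewest mutant peaks in the whole list, 5358 against 15981 in WT.

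A mark present in the mutant and not in WT was rare. H3K27ac met this at 38 members (0.82%, against 0.924% of all WT H3K27me3 peaks) and H3K4me3 at 30 (0.65%, 1.41% over all). For H3K4me1 the count was 7 (0.15%, 0.144% over all) and for H3K79me2 it was 5 (0.11%, 0.227% over all). Of the members without WT H3K27ac, 0.86% had mutant H3K27ac, and of the shared peaks without it 1.05%, a difference of -0.18 points (-0.52 to 0.20). For H3K4me3 these shares were 0.71% and 2.39%, lower by 1.69 points in the members (interval of the difference -2.14 to -1.23). H3K4me3 or H3K27ac was present in the mutant and neither in WT at 46 members (0.99%, 1.57% over all), and at 1.83% of WT-only peaks when a −log10 q of at least 5 was required in both lists. The opposite, either mark in WT and neither in the mutant, held at 57 members (1.23%, 3.15% over all).

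Some of these cases lay beside a peak of the same mark, most often those with mutant and no WT H3K4me3. Of the 30 members with mutant and no WT H3K4me3, 20 had a WT H3K4me3 peak within 1000 bp, at a median distance of 182.5 bp over the 30. For H3K27ac, 12 of 38 had a WT peak within 1000 bp, and the median distance was 12985 bp. For H3K4me1 it was 1 of 7 and for H3K79me2 0 of 5. Of the 44 members with WT and no mutant H3K4me3, 2 had mutant H3K4me3 within 1000 bp. Of the 76 with WT and no mutant H3K27ac, 10 had mutant H3K27ac within 1000 bp. For H3K79me2 this held at 24 of 73 members and for H3K4me1 at 4 of 60. Where a mutant mark overlapped a member it mostly covered it, with 64.8% of the H3K4me3 and 65.5% of the H3K27ac cases covered end to end.

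**Figure D3:**
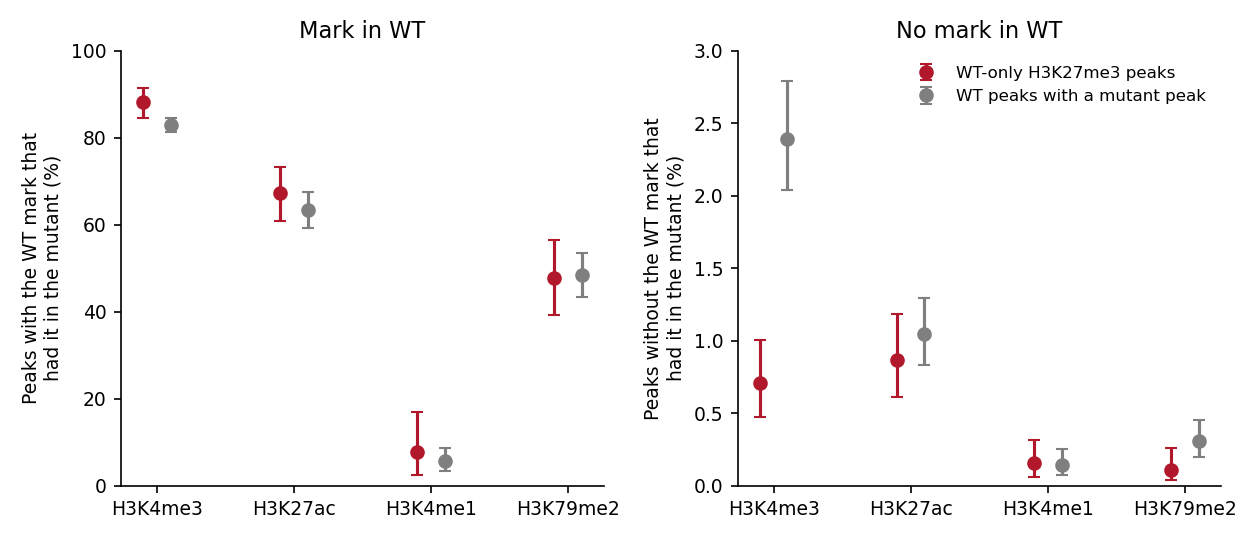
Left, percent of H3K27me3 peaks with a mark in WT that also had it in the mutant; right, percent of peaks without the mark in WT that had it in the mutant (axis to 3%), for WT-only peaks in red and peaks with a mutant peak in grey, with exact 95% binomial intervals. On the left the classes are close for each mark, 88.3% against 83.0% for H3K4me3; on the right the red H3K4me3 point (0.71%) is below the grey one (2.39%).

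Promoter-type members, those with WT H3K4me3, were followed by their WT acetylation. Of 185 members with WT H3K4me3 and no WT H3K27ac, the bivalent pattern without acetylation, 138 (74.6%, 67.7 to 80.7) had H3K4me3 without H3K27ac in the mutant as well. Another 12 (6.49%, 3.40 to 11.1) had H3K4me3 with H3K27ac, and 35 (18.9%) had neither. The 1549 shared peaks of this pattern had H3K4me3 without H3K27ac in the mutant in 74.2% of cases, both marks in 4.26% (3.31 to 5.39) and neither in 21.3%. Of 190 members with both marks in WT, 129 (67.9%, 60.8 to 74.5) had both in the mutant and 52 (27.4%, 21.2 to 34.3) H3K4me3 alone of the pair. Of 507 shared peaks with both in WT, 63.3% (59.0 to 67.5) had both in the mutant and 33.5% (29.4 to 37.8) H3K4me3 alone. Members and shared peaks thus kept these states at similar shares, with overlapping intervals. No interval of the difference was computed for these states.

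The WT H3K4me3 peaks at members were also stronger than those at shared H3K27me3 peaks within the same list. Their median MACS score was 768 at the 375 members and 473 at 2056 shared peaks, with 927 over the whole WT H3K4me3 list. In the mutant list the medians were 626 at members, 411 at shared peaks and 731 overall. For H3K27ac the WT medians were close, at 315, 278 and 299.

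Members far from mutant H3K27me3 were the ones most often at H3K4me3. Of the 578 members more than 100 kb away, 144 (24.9%, 21.4 to 28.6) had WT H3K4me3 and 133 (23.0%, 19.6 to 26.7) mutant H3K4me3. Of the 4052 nearer members, 5.70% had WT and 5.63% mutant H3K4me3, so that the far members were higher by 19.2 points (15.8 to 23.0) in WT and 17.4 (14.1 to 21.0) in the mutant. H3K27ac went the same way, at 13.0% against 3.87% in WT and 9.34% against 3.46% in the mutant. Members 1001 to 10000 bp away had the lowest shares, 3.07% for WT H3K4me3 and 2.26% for WT H3K27ac. Median length was 622.5 bp in the far members and 548 bp in those within 1000 bp. The share of WT H3K4me3 members that had it in the mutant was alike in both sets, 127 of 144 (88.2%, 81.8 to 93.0) and 204 of 231 (88.3%, 83.5 to 92.2).

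**Figure D4:**
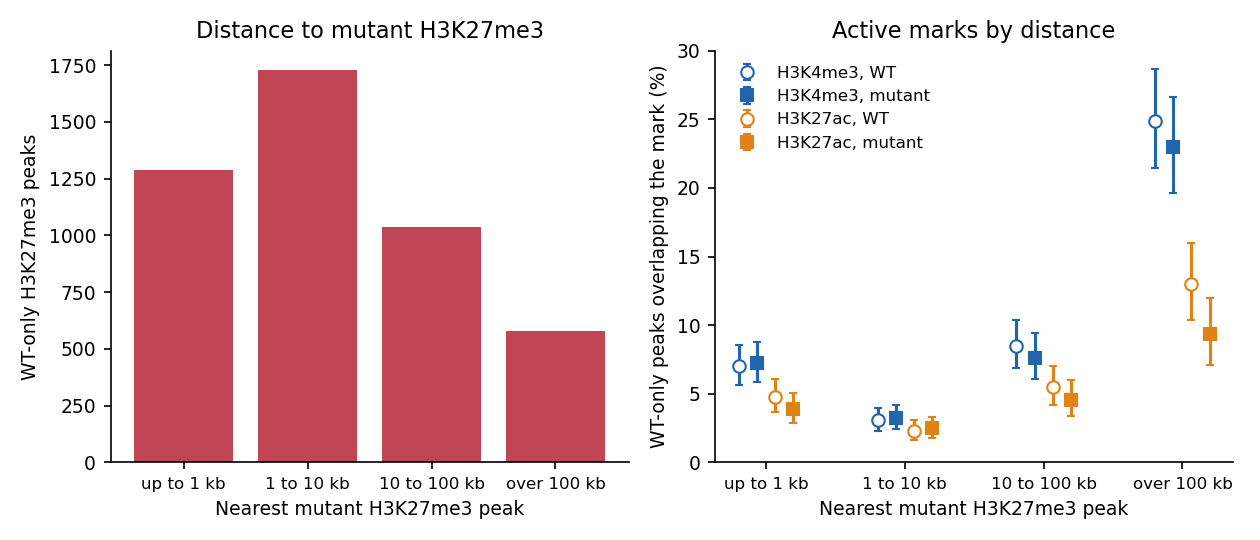
Left, number of WT-only H3K27me3 peaks by distance to the nearest mutant H3K27me3 peak; right, percent of them that overlapped H3K4me3 (blue) or H3K27ac (orange) in WT (open circles) and in the mutant (filled squares), with exact 95% binomial intervals. The 578 peaks over 100 kb away have the highest H3K4me3 shares, 24.9% in WT and 23.0% in the mutant.

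Isolation was not particular to the members. Measured in both classes as distance to another WT H3K27me3 peak, 550 WT-only peaks (11.9%) and 835 shared peaks (9.74%) had none within 100 kb. WT H3K4me3 was at 30.9% (27.1 to 35.0) of these WT-only and 56.3% (52.8 to 59.7) of these shared peaks, and at 3.48% and 17.9% of those with another WT peak within 10 kb. In the isolated sets WT H3K27ac was at 15.8% and 15.7%, a difference of 0.13 points (-3.72 to 4.15). The isolated WT-only peaks had a median length of 655 bp and the isolated shared peaks one of 2455 bp. These shares were not matched for length.

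The longest members show this range of settings. The longest of all, 4883 bp on chromosome 6 from 4852246 to 4857128, had a fold of 3.73 and was 475956 bp from mutant H3K27me3. H3K4me3 covered 1627 bp of it by the WT list and 2519 bp by the mutant list, and H3K27ac was 65542 bp away in WT, 185892 bp in the mutant. The second, of 3937 bp on chromosome 14 from 118441232 to 118445168 (fold 4.22), had 3 mutant H3K27me3 peaks within 10 kb, the nearest at 2167 bp, and no active mark of either genotype within 39834 bp. The third, of 3631 bp on chromosome 15 from 98552216 to 98555846, was 3078 bp from mutant H3K27me3, with WT H3K4me3 at 1670 bp and mutant H3K4me3 at 1418 bp. The fourth, on chromosome 3 from 36734390 to 36737949 (3560 bp, fold 4.27), was 143240 bp from mutant H3K27me3 and overlapped no active mark. The fifth, on chromosome 11 from 59988262 to 59991804 (3543 bp, fold 4.03), carried WT and mutant H3K4me3 over 2132 and 2804 bp and H3K79me2 over 2174 and 2331 bp. WT H3K4me1 covered 2175 bp of it, and the nearest mutant H3K4me1 peak was 38286 bp away.

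The 5 members with the highest −log10 q were all 649 bp or shorter, and 3 of them stood at active marks. The strongest, of 217 bp on chromosome 2 from 16604699 to 16604915 (fold 5.70, −log10 q 7.82), was covered end to end by H3K4me3, H3K27ac and H3K79me2 in WT and by H3K27ac in the mutant. The nearest mutant H3K4me3 peak was 324691 bp away and the nearest mutant H3K27me3 peak 1045902 bp. On chromosome 17 from 4626344 to 4626586 (243 bp, fold 5.41), WT H3K4me3 and H3K27ac covered the whole member, and the nearest mutant peaks of these marks were 280427 and 280209 bp away. On chromosome 11 from 108286944 to 108287592 (649 bp, fold 5.62), WT H3K4me3 covered 543 bp and mutant H3K4me3 all of it; WT H3K27ac covered 371 bp, with no mutant H3K27ac within 201619 bp. The other two carried no active mark: one on chromosome 2 at 73096792 to 73097055 (fold 4.96, 2113 bp from mutant H3K27me3) and one on chromosome 4 at 133781477 to 133781728 (fold 5.20, 2357 bp from it).

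The 5 farthest members of at least 1000 bp had H3K4me3 in 2 cases and no active mark in the other 3. On chromosome 7, the members from 64845978 to 64847665 and from 64764501 to 64765744 were 5960304 and 5878827 bp from mutant H3K27me3. WT H3K4me3 covered 1477 bp and mutant H3K4me3 all 1688 bp of the first, and the second had no active mark. On chromosome 6 from 77193056 to 77194991, no peak of an active mark of either genotype lay within 3985624 bp. The member on chromosome 5 from 84845088 to 84846891 (fold 4.31) likewise had no active mark, the nearest being WT H3K79me2 at 1644067 bp. On chromosome 18 from 89937845 to 89939377, WT H3K4me3 covered 976 bp and mutant H3K4me3 all 1533 bp, without H3K27ac within 739341 bp.

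Both H3K27ac and H3K4me3 were present in the mutant and absent from WT at 5 members, 4 of them 534 bp or shorter. The share over all WT H3K27me3 peaks was not computed. Among peaks with no WT active mark, both marks were in the mutant at 2 members (0.048%) and 4 shared peaks (0.063%). At 3 of the 5 members, WT H3K4me3 ended within 114 bp of the member: on chromosome 8 from 87226477 to 87227155 (67 bp away), on chromosome 4 from 97446081 to 97446614 (1 bp) and on chromosome 7 from 20282664 to 20282945 (114 bp). In the chromosome 4 member mutant H3K27ac covered 4 bp, WT H3K27ac was 134 bp away and WT H3K79me2 covered 373 bp. The chromosome 8 member carried WT H3K4me1 over 646 bp and WT H3K79me2 over 556 bp, with WT H3K27ac 437 bp away. The other two had no WT H3K4me3 close by. On chromosome 9 from 60904404 to 60904818, both mutant marks covered all 415 bp; in WT the member carried H3K4me1 over all 415 bp, and WT H3K4me3 and H3K27ac were 217440 and 13746 bp away. On chromosome 6 from 146744466 to 146744705 (240 bp), both mutant marks covered the member, WT H3K4me3 was 69769 bp and WT H3K27ac 18188 bp away, and mutant H3K27me3 lay at 256 bp. No member had all 4 active marks in the mutant (0.00757% over all WT H3K27me3 peaks, which is 1 shared peak), and 8 (0.17%, 0.273% over all) had all 4 in WT.

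WT H3K4me3 without mutant H3K4me3 was found at 44 members. The longest was on chromosome 2 from 81892243 to 81894722 (2480 bp, fold 4.11), where WT H3K4me3 covered 790 bp and mutant H3K27me3 was 1464687 bp away. Next were those on chromosome 10 from 78242168 to 78243910 (WT H3K4me3 over 977 bp), chromosome 4 from 101222043 to 101223743 (1124 bp), chromosome 7 from 29252063 to 29253616 (1122 bp) and chromosome 15 from 36139906 to 36141333 (854 bp). The member on chromosome 7 also had WT H3K27ac over 926 bp. None of the 5 had an active mark in the mutant, so that no mutant list, H3K27me3 included, had a peak in them.

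Members were often neighbours of one another. Joined across gaps of up to 50 kb they formed 2597 groups. Of the members, 1673 (36.1%) stood alone, and 1053 (22.7%) were in 163 groups of 5 or more. Shared peaks were not grouped in this way, so these counts carry no comparison. Closeness was not particular to the members. Another WT H3K27me3 peak of any class lay within 10 kb of 60.2% of WT-only and 73.8% of shared peaks. The largest group, 14 members on chromosome 1 from 134415295 to 134536428, had no peak of any active mark in either genotype. WT H3K27me3 covered 23252 bp of its 121134 bp in 20 peaks and mutant H3K27me3 22816 bp in 9, although the members summed to 9366 bp. The members were 27 to 15304 bp from mutant H3K27me3. A second group on chromosome 1, of 13 members from 134664569 to 134856478, also lacked active marks, with 28725 bp of WT and 19391 bp of mutant H3K27me3. On chromosome 11 from 75602170 to 75808065, a group of 13 members held more H3K27me3 in the mutant, 52474 against 38379 bp.

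In 1 large group, mutant H3K27ac without WT H3K27ac lay over 3 members. This group of 12 members, on chromosome 9 from 48498030 to 48773513, was the one with the largest summed length among 4 groups of 12. It had no WT H3K27ac and 2 mutant H3K27ac peaks, of 3281 bp from 48542660 to 48545940 (MACS score 408) and of 8109 bp from 48546230 to 48554338 (score 421). They covered 3 members end to end: those from 48543212 to 48545402 (2191 bp, fold 4.10), from 48546808 to 48547022 (215 bp, fold 3.42) and from 48549031 to 48550072 (1042 bp, fold 4.46). The nearest WT H3K27ac peak was 238659 to 242255 bp from them, and mutant H3K27me3 was 2758 to 8577 bp away. A WT H3K4me3 peak beside them, from 48552095 to 48553521, had no mutant H3K4me3 peak, and mutant H3K4me1 was in neither of the 2 mutant H3K27ac peaks.

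**Figure D5:**
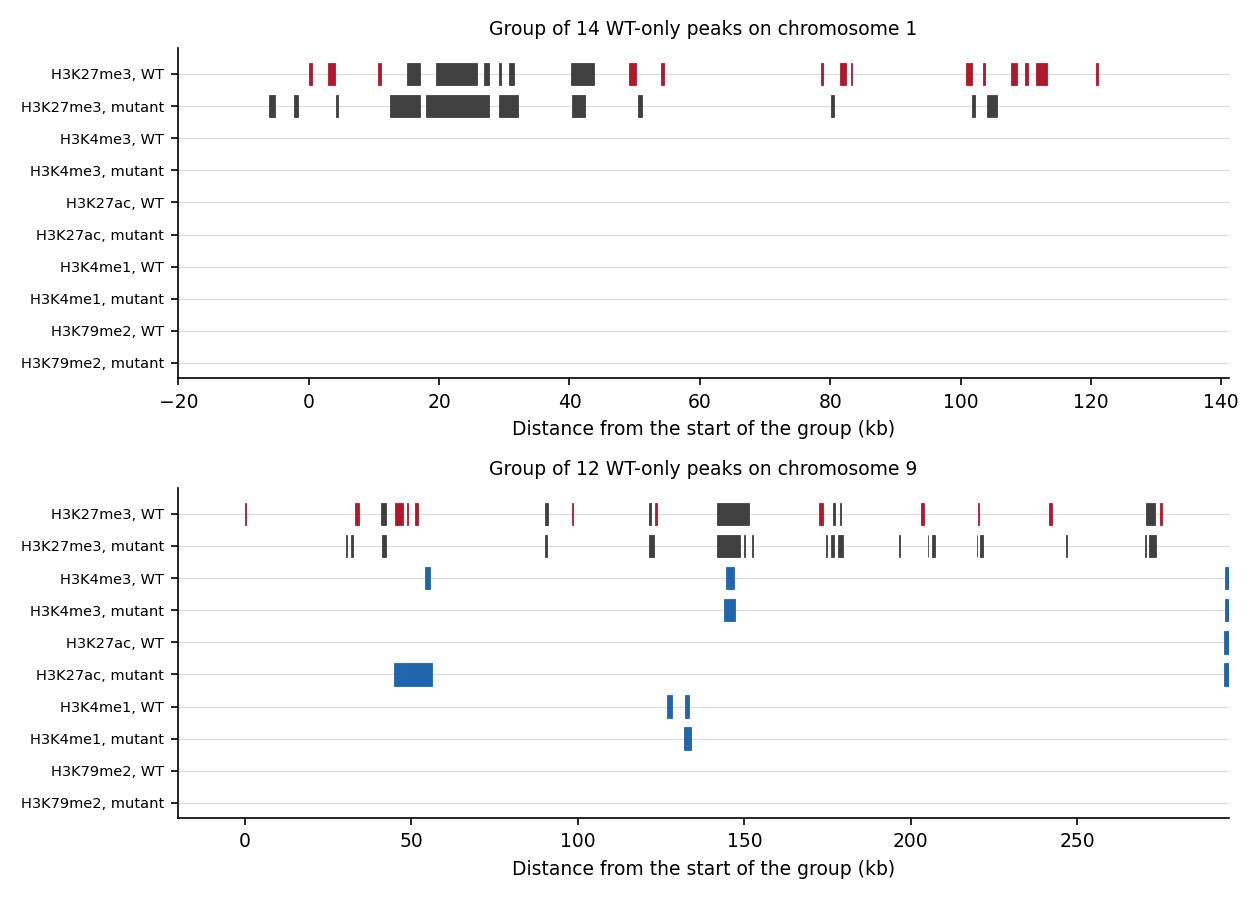
Peaks of each mark (rows, WT above mutant) along the group of 14 WT-only H3K27me3 peaks on chromosome 1 and that of 12 on chromosome 9, with distance in kb from the start of the group and flanks of 20 kb; WT-only peaks are red, other H3K27me3 peaks dark grey and active marks blue, each drawn with a thin outline so that the shortest can be seen. The chromosome 1 group has no active mark, and on chromosome 9 the 2 mutant H3K27ac peaks, close enough to appear as 1 block, lie over 3 red peaks.

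Across the autosomes, 19 members (0.41%, 0.227% over all WT H3K27me3 peaks) had mutant H3K27ac and no WT active mark, a set chosen after its values were seen. They were 0.46% of the 4152 members without a WT active mark (0.28 to 0.71), and the 11 shared peaks of this kind were 0.17% of 6354 (0.086 to 0.31). The difference was 0.28 points (0.071 to 0.55). Over all peaks without WT H3K27ac, given above, the interval of the difference spanned 0. Of the 19 members, 3 were the members on chromosome 9 just given, and 4 were on chromosome 8, from 119579968 to 119580348, 119589573 to 119589781, 119600776 to 119601388 and 119602385 to 119602660. The chromosome 8 members were 209 to 613 bp long, were covered end to end by mutant H3K27ac, and lay 76428 to 86033 bp from WT H3K27ac. They were also 1011 to 7249 bp from mutant H3K27me3. Others of the 19 lay close to WT H3K27ac. It was 320 bp from the chromosome 12 member at 25864325, where mutant H3K27ac covered 164 of 736 bp. On chromosome 2 at 26831072 it was 367 bp away, with 128 of 598 bp covered. On chromosome 7 at 20282664 it was 526 bp away, with 171 of 282 bp covered. On chromosome 17 at 45887367 it was 736 bp away, with all 405 bp covered. Neighbouring members at one locus are not separate events, so the 19 stand for fewer loci.

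The mirror class, mutant H3K27me3 peaks that no WT peak overlapped, numbered 7311 of 14630 on the autosomes (50% as a rounded share). WT active marks were at 6.91% of them (6.34 to 7.51), and mutant active marks at 9.27% of the WT-only peaks, a difference of 2.36 points (1.35 to 3.39). H3K4me3 was at 7.80% of WT-only peaks in the mutant and 4.24% of mutant-only peaks in WT, a difference of 3.56 points (2.67 to 4.48). H3K27ac differed by 0.73 points (0.030 to 1.46). H3K4me1 and H3K79me2 went the other way, at -1.51 points (-1.85 to -1.17) and -0.67 points (-1.16 to -0.17). By the lists of each class's own genotype, these 2 marks were higher at WT-only peaks, by 0.99 points (0.65 to 1.39) and 1.25 points (0.68 to 1.85). In those own-genotype lists the H3K4me3 shares were 8.10% and 4.49%. The higher H3K4me3 share of WT-only peaks was therefore there in WT as well as in the mutant. Mutant-only peaks were longer, with a median of 683 bp, and their median distance to WT H3K27me3 was 3877 bp. Within 1000 bp, 19.7% of them had WT H3K27me3, against 27.8% of WT-only peaks with mutant H3K27me3. Within 5000 bp the share was 55.5% in both classes, and within 10 kb it was 69.2% and 65.1%.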

How the data were processed

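Per the labels' protocols, chromatin was sheared by sonication, and 12 libraries were made with 10 PCR cycles: 5 marks and an input for each genotype. The analysis started from the 10 deposited peak lists, 1 per library; the inputs were not used here. The tools Bowtie, MACS, MACS2 and deepTools and the build mm9 come from the submitters' processing notes, which as used here give neither role nor version. The H3K27me3 and H3K79me2 lists as deposited give per peak a fold enrichment (ratio), a −log10 p (lowest 5.00), a −log10 q and a score. The other lists as deposited give a MACS score that reads as 10 times −log10 p (lowest 90). These are the authors' own values, used within a list. Read depth is unknown, and a missing peak is a region under the threshold, not a measured absence.

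Counts were repeated with 10 other settings (thresholds, joining, list size) and 3 chosen after seeing the data. Overlap was 1 bp or more, distances run between peak edges, and coordinates count from 1. Shares have exact (Clopper-Pearson) 95% binomial intervals and differences Newcombe intervals; with 1 library per group there is no test. Members, lists and the classes of length and distance were chosen with earlier results of these data known. Named were the 5 longest, 5 strongest and 5 farthest members (of at least 1000 bp), the 5 longest with mutant H3K27ac and H3K4me3 and neither in WT, the 5 longest with WT and no mutant H3K4me3, any with all 4 mutant marks, the 4 groups with the most members (ties broken by summed length, which decided among 4 groups of 12), and 3 on each side of the rule. The gene table used here is on another build, so no list of genes or cell type markers was run and no sequence is printed. The scripts ran in Python 3.11.15 with scipy 1.17.1, numpy 2.4.6 and, for plots, matplotlib 3.10.9, and the overlap code was tested on simulated data with 0 errors.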

Additional observations from a re-analysis of the deposited data

How the results depend on the processing

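The counts were repeated with 10 other settings and with 3 more chosen after seeing the data. In all 13, mutant active marks were less frequent at WT-only than at shared peaks. The setting with active lists trimmed to the same number of peaks could not change these shares. Each mutant active list was already the shorter and stayed whole. The shares were closest with marks over at least 50% of the peak, at 8.38% of WT-only and 11.6% of shared peaks. With an overlap of 1 bp or more they were 9.27% and 22.5%. Shared peaks were longer, and the part that length played was not tested. The WT-only share of 35.1% became 34.0% with a −log10 q of at least 3, 25.3% when a mutant peak within 1000 bp counted as shared, 36.7% with the longer H3K27me3 list trimmed to the same number of peaks, strongest first, and 26.6% for peaks of at least 500 bp. With a −log10 q of at least 5 it was 22.3% when required in both lists and 7.13% when required in the WT list alone. The share with any mutant active mark (9.27%) was 7.52% with stricter active lists (a MACS score of at least 200, or a −log10 q of at least 5 for H3K79me2), 11.3% for marks within 1000 bp and 8.38% for marks over at least 50% of the peak. At a −log10 q of at least 5 it was 26.1% for both lists and 17.2% for the WT list alone. Mutant H3K27ac (4.19%) was at 2.68% with stricter active lists, 5.77% within 1000 bp, 7.65% at a −log10 q of at least 5 in both lists and 7.29% with it in the WT list alone. The share with H3K27ac or H3K4me3 in the mutant and neither in WT (0.99%) was 1.45% with 50% cover and 1.83% at a −log10 q of at least 5 in both lists. A mutant peak within 10 kb (65.1%) was found for 51.7% when peaks within 1000 bp counted as shared, 62.95% with peaks of a list within 1000 bp joined, 62.4% with lists of the same number, and 24.8% or 63.5% with a −log10 q of at least 5 in both lists or in the WT list. Beyond the effect of fewer peaks in the stricter lists, the cause was not tested. The other results stayed within their intervals. No paired analysis was possible because each group has 1 library. Without read counts, the part that depth played is unknown.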

Other observations

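The WT-only share of H3K27me3 peaks was spread over all autosomes. It went from 29.2% on chromosome 11 (377 of 1290 peaks, 26.8 to 31.8) and 29.9% on chromosome 17 (173 of 579) to 42.2% on chromosome 1 (300 of 711, 38.5 to 45.9) and 42.8% on chromosome 14 (169 of 395, 37.8 to 47.8). Chromosome X was left out by the rule. It had 73 WT H3K27me3 peaks, of which 16 (21.9%, 13.1 to 33.1) had no mutant peak, and 5 of these 16 overlapped a mutant active mark. That count was not set beside the shared peaks of chromosome X, so it carries no comparison.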
